A study of Mus musculus with 20 samples.

Results

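Grafts of seminal vesicle epithelium labelled as carrying a hairpin, UTY_sh, were compared with grafts of the unmodified epithelium, labelled SVE, to see what the hairpin changes when no other construct is present. These are 4 UTY_sh and 4 SVE libraries, 8 of the 20 in the series, taken by their titles. A gene was tested when its value was 5 or more in at least 4 of the 20 libraries, which left 13456 of 23284 genes. Mouse epithelial cells were combined with urogenital sinus mesenchyme from Sprague Dawley rats, and the tissue was collected 3 months after implantation. The mouse background is labelled as a hybrid of 129/SvImJ and C57Bl/6J, while the growth protocol gives C57Bl/6J donors aged 2 months. The labels of every group, SVE and UTY_sh included, give 3 months of doxycycline by drinking water, the inducer of the NKX3.1 vector. Of the other 3 groups, used here for reference, PE is unmodified prostate epithelium, mNKX3.1 is seminal vesicle epithelium with an NKX3.1 construct, and mNKX3.1+UTY_sh is labelled with both construct and hairpin. The labels do not give the sequence or vector of the hairpin, the share of cells that carried it, or a control hairpin. Nor do they tie each library to an animal of its own, so the p-values reflect the spread of these libraries, part of which may be technical. Replicate numbers only name the libraries.

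UTY is the Y-linked relative of KDM6A, a demethylase that removes methyl groups from lysine 27 of histone H3, a mark laid down by Polycomb repressive complex 2. KDM6A also belongs to the complexes of the methyltransferases KMT2C and KMT2D, which mark enhancers. The seminal vesicle grows from the Wolffian duct and the prostate from the urogenital sinus, and urogenital sinus mesenchyme can direct epithelium towards prostate. Each gland secretes its own abundant proteins, so the secretory genes tell the tissues apart.

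Values are log2 expression values as deposited, and a difference of 1 is a change of 2-fold. Genes near the bottom of the scale, at about 2.20 ± 0.46 (mean and SD over 3457 genes with a mean below 2.3), carry a scatter that the libraries do not share, so differences there are understated and noisy. The depth was about 20260000 to 25000000 reads in SVE and 22520000 to 24950000 in UTY_sh. The seminal vesicle identity of the grafts was clear from 18 secretory genes, 15 of them tested. Together the 18 took 49.6% to 63.2% of the reads in SVE, 56.2% to 61.5% in UTY_sh and 1.15% to 1.52% in PE. SVE replicate 1 stood apart. On the first principal component, which held 48.4% of the variance of the 8 libraries, it scored 41.2, against -27.0 to -11.0 in the other SVE libraries and -14.3 to 22.5 in UTY_sh. The genes that weighed most on that component were Pbsn, Tgm4 and 9530053A07Rik, all made by prostate. Across genes, SVE replicate 1 correlated at 0.989 with UTY_sh replicate 3 and at 0.959 with SVE replicate 4. These are correlations over genes, which are not independent replicates.

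No gene differed between UTY_sh and SVE in limma's test at an adjusted p below 0.05 (0 of 13456 genes, 0%). The smallest adjusted p was 0.999. At an unadjusted p below 0.05 there were 181 genes (1.35%), 99 higher (0.736%) and 82 lower (0.609%) in UTY_sh. If no gene differed and the p-values were evenly spread, a share of 0.05 would fall there, which is more than was seen. The number was 85 to 477 when each library was left out in turn, highest without SVE replicate 1, and the cause was not tested. The values of the groups did not overlap for 165 genes (1.23%), of which 83 (0.617%) were higher and 82 (0.609%) lower in UTY_sh. The median difference was 0.0035, and 51.4% of the genes had a difference above 0. Without UTY_sh replicate 4, limma called 2 genes, Sbp and Sbpl, both prostate genes described below. Without the library of each group with the highest Pbsn, SVE replicate 1 and UTY_sh replicate 3, it called 0, with 519 genes at an unadjusted p below 0.05.

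The intervals give the range of differences for each gene taken alone, without the adjustment over all genes. They do not show which differences the adjusted test could call. H19, at -1.73 with an interval from -2.41 to -1.05, was not called. The 95% interval of the difference lay within 2-fold either way for 12926 genes (96.1%), and within 1.5-fold for 11326 (84.2%). The median standard error was 0.111. It fell with expression, from 0.275 over 822 genes with a mean below 5 to 0.080 over 1022 genes above 11. Only 40 genes had a standard error above 1, Pbsn, Tgm4, Hoxb13, Sbp and Sbpl among them. For most genes a 2-fold difference of the group means therefore lies outside the interval.

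**Figure D1:**
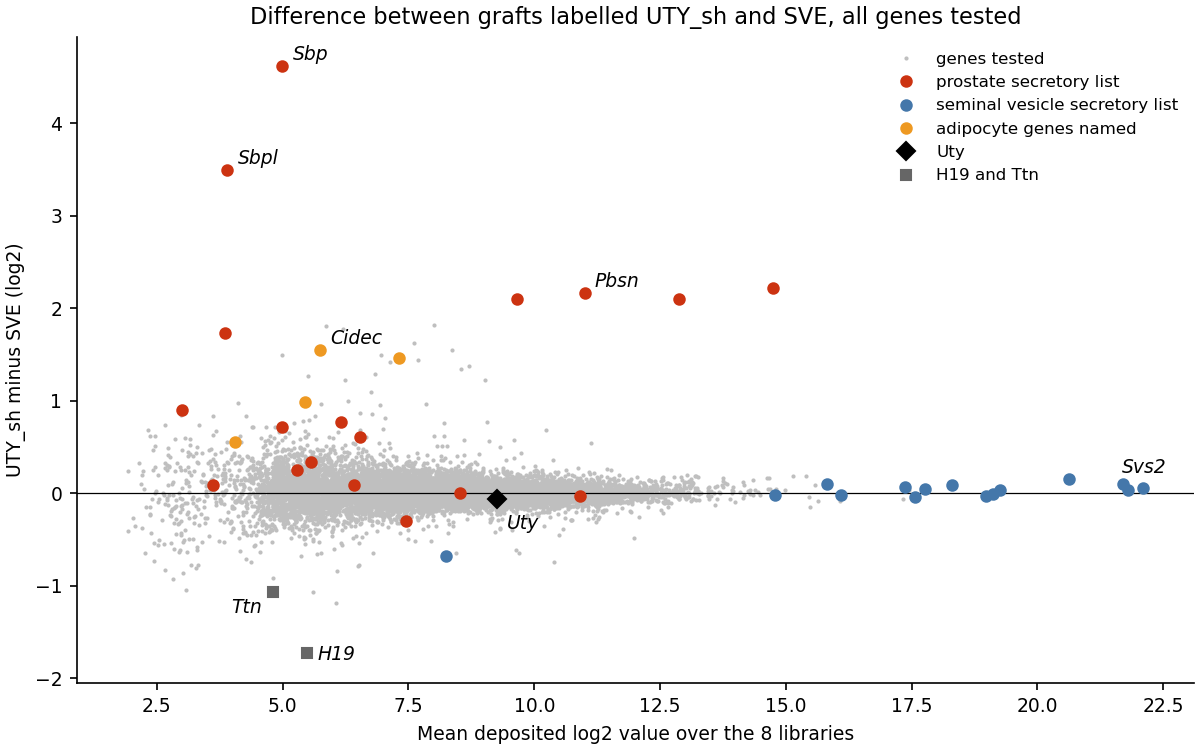
Difference between UTY_sh and SVE (log2, vertical axis) against the mean deposited log2 value over the 8 libraries (horizontal axis) for the 13456 genes tested, 1 point per gene. Sbp and Sbpl lie highest, at 4.61 and 3.49, H19 and Ttn lie lowest among the labelled genes, at -1.73 and -1.07, the seminal vesicle genes lie close to 0 apart from Sval2 at -0.68, and Uty lies at -0.07.

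The gene that the hairpin is named after was not measurably lower in the libraries labelled UTY_sh. Uty was 9.55, 9.27, 9.04 and 9.29 in the SVE libraries and 9.16, 9.22, 9.52 and 8.98 in UTY_sh. The groups overlapped, with the highest UTY_sh library above 3 of the 4 SVE libraries. The difference was -0.07 ± 0.13 (SE), with a 95% interval from -0.36 to 0.22 (exact permutation p = 0.657, two-sided, 4 against 4, where the smallest possible p is 0.0286). On a linear scale the UTY_sh mean was 95.3% of SVE, with an interval from 77.9% to 116.6%, so a UTY_sh mean below 77.9% of SVE lies outside the interval. The RNA was read from whole grafts, and UTY protein was not measured. Uty thus gives no check that these libraries carried an active hairpin, and they are called UTY_sh only as labelled. Fewer cells of a type and less RNA per cell cannot be told apart in bulk samples.

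Other genes of the Y chromosome give a scale for Uty within the same libraries, although which cells their RNA came from was not tested. Uty minus the mean of Ddx3y, Kdm5d and Eif2s3y was -0.66 ± 0.17 in SVE (SD, n = 4) and -0.69 ± 0.14 in UTY_sh. The difference of -0.02 did not pass the exact permutation test (p = 0.8, two-sided). Ddx3y, which encodes an RNA helicase, was 10.89, 10.59, 10.23 and 10.49 in SVE and 10.34, 10.44, 10.78 and 10.32 in UTY_sh. Its highest library in each group was also the highest in Uty and in Pbsn. Uty minus Ddx3y was between -1.33 and -1.19 in SVE and between -1.33 and -1.18 in UTY_sh. Kdm5d, a demethylase of lysine 4 of histone H3, differed by 0.01 ± 0.08 (SE) and the translation initiation gene Eif2s3y by -0.07 ± 0.07. The 5 other Y genes of the list in the table, Usp9y, Zfy1, Zfy2, Ube1y1 and Sry, did not reach the minimum for testing and were at most 3.38 in the 8 libraries.

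Set beside the other groups, Uty in UTY_sh was at the level of the unmodified seminal vesicle grafts and below that of PE. It was 9.12, 9.12, 9.09 and 9.29 in mNKX3.1+UTY_sh, 10.31, 10.29, 10.07 and 10.27 in mNKX3.1, and 10.18, 10.13, 10.45 and 10.19 in PE. The 12 libraries of SVE, UTY_sh and mNKX3.1+UTY_sh all lay below the 8 of the other groups. Uty was lower by 1.02 ± 0.12 (SE) in UTY_sh than in PE (limma adjusted p = 9.06e-05). The interaction, which is the difference that goes with the UTY_sh label in grafts with the construct minus that in grafts without it, was -1.01 ± 0.16 for Uty (limma adjusted p = 7.87e-05). Ddx3y showed the same split between these sets of groups. It averaged 11.33 in mNKX3.1 and 11.31 in PE, against 10.55 in SVE, 10.47 in UTY_sh and 10.38 in mNKX3.1+UTY_sh.

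Histone enzyme genes related to UTY were close to their SVE levels. Kdm6a, the X-linked relative, was 9.51, 9.68, 9.42 and 9.70 in SVE and 9.61, 9.45, 9.61 and 9.40 in UTY_sh, a difference of -0.06 ± 0.09 (SE). Kdm6b, an autosomal demethylase of the same mark, was 10.53 to 10.91 in SVE and 10.53 to 10.80 in UTY_sh, a difference of -0.07 ± 0.09. Ehmt2, which encodes the lysine 9 methyltransferase G9a, was 11.26 to 11.39 in SVE and 11.24 to 11.42 in UTY_sh, a difference of -0.04 ± 0.06. All these ranges overlapped. None of the 11 tested genes of Polycomb repressive complex 2 was called, 6 differed by more than 0 and 5 by less, and the median was 0.001. The largest of these differences was in Phf1, a subunit that binds methylated histone H3, at -0.15 ± 0.09. None of 9 tested genes of the KMT2C and KMT2D complexes was called (median -0.021), and Mll2, the older symbol of Kmt2d, differed by -0.09 ± 0.07. None of 18 enzymes and readers of lysine 9 methylation was called either (median -0.043). Among them Setdb2 had the widest spread, with 9.74, 8.33, 8.85 and 8.18 in SVE and 7.16, 7.68, 9.28 and 8.41 in UTY_sh.

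**Figure D2:**
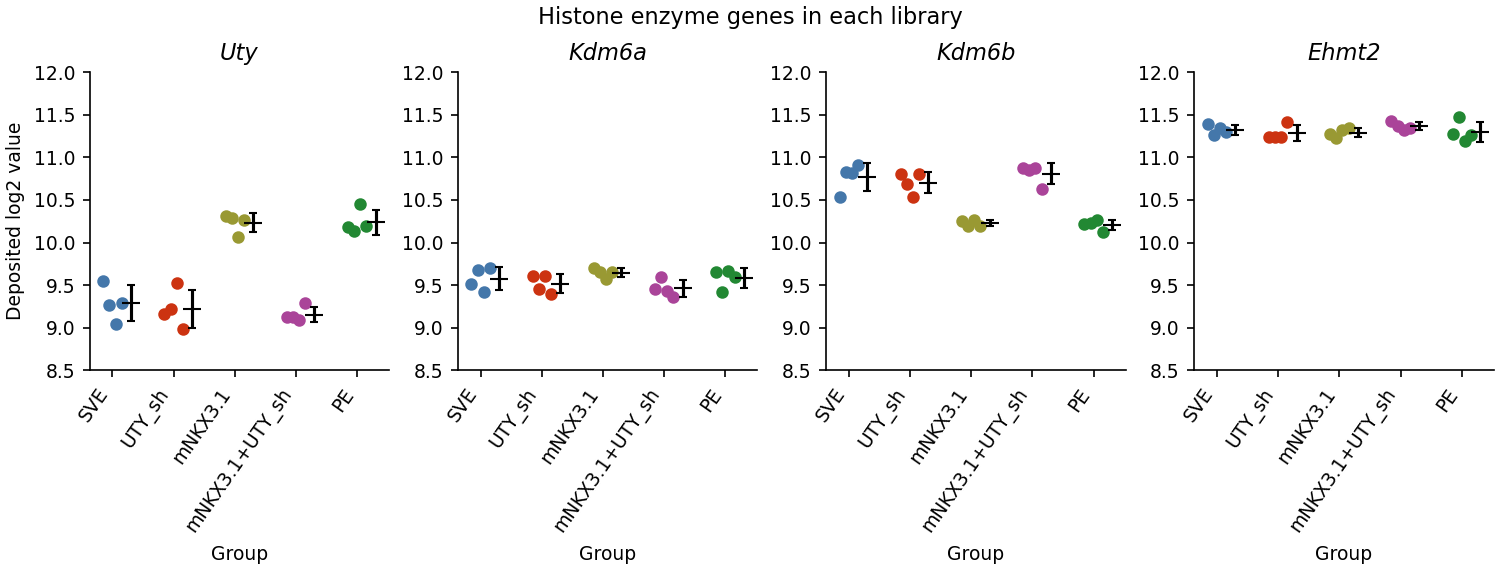
Deposited log2 values of Uty, Kdm6a, Kdm6b and Ehmt2 (vertical axis) in the 4 libraries of each of the 5 groups (horizontal axis), with the mean and SD drawn beside the points. Uty in UTY_sh, at 8.98 to 9.52, spans nearly the same range as in SVE, at 9.04 to 9.55, and lies below mNKX3.1 and PE, while the ranges of Kdm6a and Ehmt2 overlap between all groups.

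A hairpin can load the small RNA machinery or set off the interferon response to double-stranded RNA, so both lists were read. Of 12 tested genes of small RNA processing, 11 differed by less than 0, with a median of -0.013 and a range from -0.14 to 0.00, and none was called. Of 27 tested interferon genes, 22 were lower and 5 higher in UTY_sh, with a median of -0.124, against 0.0035 over all genes, and none was called. The 2 at an unadjusted p below 0.05 were both lower, where 0.609% of all genes were. Oasl1, which is induced by interferon, was 6.55, 6.94, 6.74 and 6.93 in SVE and 6.02, 6.08, 6.33 and 6.59 in UTY_sh, and the groups overlapped by 1 library. Ifit1, which binds foreign RNA, differed by -0.54 ± 0.24 (SE). The summed level of all 30 genes of the list, tested or not, was 12.27 to 12.78 in SVE. In UTY_sh it was 12.42 to 12.61, a range that lies inside that of SVE.

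The secretory genes of the seminal vesicle were abundant in both groups, in overlapping ranges. Svs2, the most abundant of them, was 21.57, 22.37, 21.92 and 22.42 in SVE and 22.25, 21.93, 22.17 and 22.15 in UTY_sh. The UTY_sh libraries lay inside the SVE range, and the difference was 0.06 ± 0.60 (SE), with an interval from -1.28 to 1.39. This SE is limma's, which also draws on the spread of other genes at a similar level, so it is not that of the Svs2 values alone. The Svs2 difference stayed between -0.11 and 0.17 when each library was left out in turn. Of the 15 tested genes, 9 differed by more than 0 and 6 by less, with a median of 0.035, and none was called. Apart from Sval2, their differences lay between -0.04 and 0.15. Sval2 was 8.85, 8.76, 8.18 and 8.56 in SVE and 7.04, 7.22, 8.88 and 8.51 in UTY_sh, so that 2 UTY_sh libraries were low and 2 were at the SVE level. The summed level of the list was 23.45 in SVE replicate 1 and 23.77 to 24.21 in the other SVE libraries, against 23.78 to 24.08 in UTY_sh. Against PE all 15 were called higher in UTY_sh, with a median of 10.18, where 28.3% of all genes were called higher.

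No regulator of either tract passed the test between UTY_sh and SVE. Pax2, a transcription factor of the Wolffian duct, was 9.36, 9.50, 9.59 and 9.50 in SVE and 9.50, 9.41, 9.30 and 9.53 in UTY_sh, and averaged 4.28 in PE. The 11 tested Wolffian duct regulators had a median difference of -0.033 and the 11 tested endodermal and urogenital sinus regulators one of -0.044, and none was called. The exception in size among the latter was Hoxb13, a transcription factor of the prostate, at 10.20, 5.26, 2.86 and 1.49 in SVE and 4.76, 8.34, 9.20 and 4.73 in UTY_sh. Its level varied within both groups more than between them, at 1.80 ± 1.73 (SE). Of 16 tested androgen response genes, 9 differed by more than 0 and 7 by less, with a median of 0.011. Fkbp5, a target of steroid receptors, differed by -0.19 ± 0.13 (SE).

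Prostate secretory genes varied most among the 8 grafts, and the 4 largest standard deviations over the libraries belonged to Pbsn (3.54), 9530053A07Rik (3.48), Tgm4 (3.47) and 9530002B09Rik (3.40). Pbsn, which encodes the prostate protein probasin, was 15.71, 10.93, 6.59 and 6.43 in SVE and 9.69, 13.81, 14.81 and 10.02 in UTY_sh. SVE replicate 1 was the highest of all 8, SVE replicates 3 and 4 were the lowest, and the UTY_sh libraries fell between. Against the PE mean on a linear scale, Pbsn was at 23.3%, 0.852%, 0.0418% and 0.0376% in SVE and at 0.360%, 6.23%, 12.5% and 0.452% in UTY_sh. The difference of 2.16 ± 1.97 (SE), with an interval from -2.21 to 6.54, did not pass the test, and it was 1.004 to 4.096 when each library was left out in turn, lowest without SVE replicate 4 and highest without SVE replicate 1. Tgm4, the prostate transglutaminase, had the same order of libraries, at 17.51, 12.63, 8.64 and 8.52 in SVE and 11.48, 15.94, 16.50 and 11.75 in UTY_sh. So did 9530053A07Rik, at 19.31, 14.47, 10.50 and 10.25 and at 13.48, 18.11, 18.18 and 13.65. Of the 18 tested genes of the prostate list, 16 differed by more than 0 and 2 by less, with a median of 0.743. The list is mixed in direction. Against PE, 11 of the 18 were called lower in UTY_sh, where 28.8% of all genes were. Another 2 were called higher, where 28.3% of all genes were. Folh1 averaged 3.19 in PE and 5.39 in SVE, and Trpv6 averaged 7.58 and 10.93. Wfdc3 and Spink5 were near the bottom of the scale, with means of 3.00 and 3.62 over the 8 libraries. They reached the minimum for testing only in PE and mNKX3.1 libraries. None was called. At an unadjusted p below 0.05, 3 of the 18 were higher, against 0.736% of all genes, and 1 was higher without overlap between groups, against 0.617% of all genes. Klk1b24 and Gucy2c were too low to test, at no more than 3.86. The summed level of the list was 19.80, 15.08, 12.15 and 12.16 in SVE, 14.26, 18.49, 18.72 and 14.33 in UTY_sh and 21.98 to 22.18 in PE. As a share of reads it reached 3.94% in SVE replicate 1 and 1.54% in UTY_sh replicate 3, against 26.6% to 29.5% in PE. By summed level, seminal vesicle genes were lowest in the library where prostate genes were highest, SVE replicate 1. This describes 1 library, and a relation over the 8 libraries was not tested. Whether the donor epithelium of these grafts held prostate cells was not tested.

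**Figure D3:**
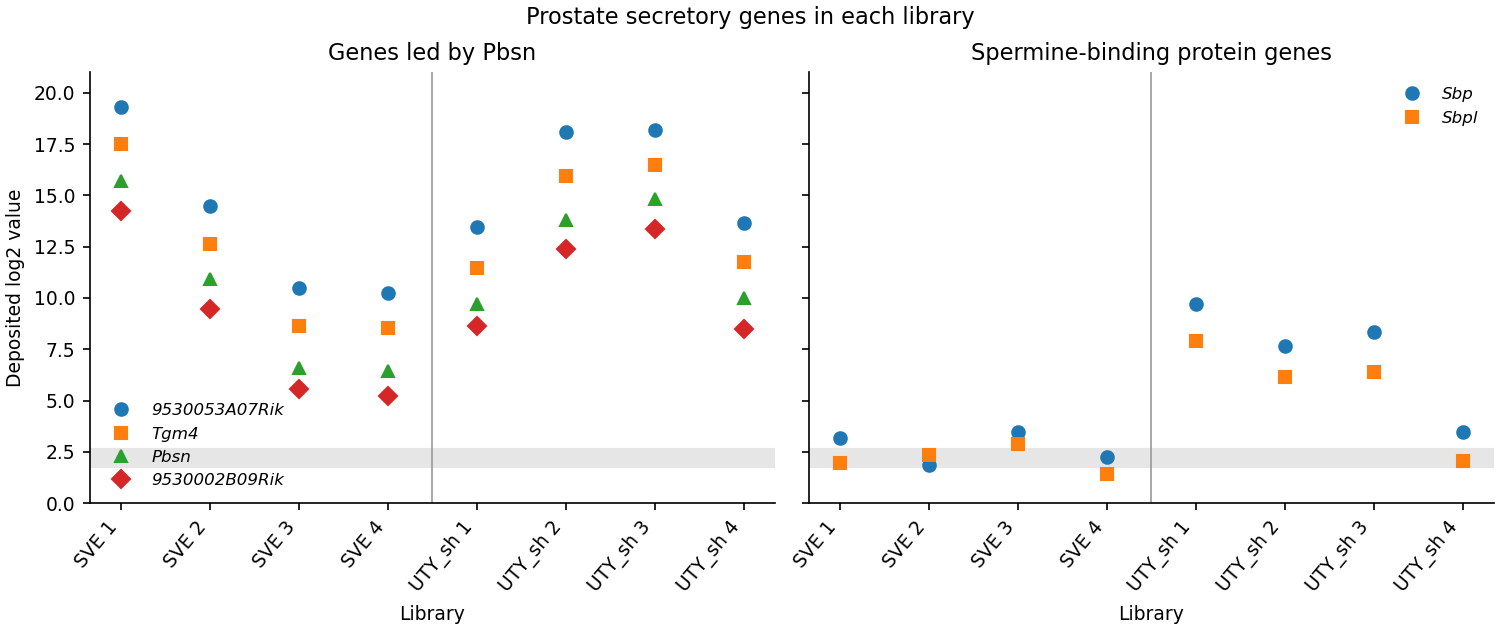
Deposited log2 values (vertical axis) of prostate secretory genes in each of the 8 libraries (horizontal axis), with genes that follow Pbsn on the left and the spermine-binding protein genes on the right. The grey band is the mean and SD of genes at the bottom of the scale (2.20 ± 0.46). SVE 1 has the highest Pbsn, at 15.71, but Sbp of 3.19, while UTY_sh 1 has the highest Sbp, at 9.72, with Pbsn of 9.69.

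The genes of the spermine-binding proteins of prostate secretion, Sbp and Sbpl, did not follow Pbsn. Sbp was 3.19, 1.84, 3.45 and 2.27 in SVE, close to the bottom of the scale, and 9.72, 7.68, 8.33 and 3.48 in UTY_sh. The groups did not overlap, although UTY_sh replicate 4 exceeded the highest SVE library only by the step from 3.45 to 3.48. The difference was 4.61 ± 1.08 (SE), with an interval from 2.20 to 7.03 (limma unadjusted p = 0.00163, adjusted p = 0.999). Sbpl was 1.94, 2.35, 2.90 and 1.42 in SVE and 7.92, 6.17, 6.41 and 2.07 in UTY_sh, so 3 of 4 libraries labelled UTY_sh were above every SVE library (limma unadjusted p = 0.00622). Without UTY_sh replicate 4 both passed the test in the remaining libraries, with differences of 5.89 for Sbp (limma adjusted p = 0.0255) and 4.68 for Sbpl (limma adjusted p = 0.0423). Sbp and Sbpl are similar in sequence, and the sources used here do not say how reads shared by similar genes were counted, so they are not separate observations. The third gene of the list at an unadjusted p below 0.05 was 5430419D17Rik, at 4.56, 3.37, 2.13 and 1.89 in SVE and 5.79, 4.36, 5.16 and 3.56 in UTY_sh, and its groups overlapped.

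Sbp was also uneven between libraries of groups without the UTY_sh label. It was 5.63, 7.35, 19.38 and 8.14 in PE, where 1 library was far above the others, and 18.48, 18.53, 8.46 and 18.22 in mNKX3.1, where 1 library was far below. In mNKX3.1+UTY_sh it was 3.45, 2.95, 2.76 and 3.19, the level of SVE. UTY_sh was higher than mNKX3.1+UTY_sh by 4.22 ± 1.03 (SE), which did not pass the test (limma unadjusted p = 0.00187).

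Promoter sequences of 3 of these genes are shown because Pbsn and Tgm4 shared the order of libraries and Sbpl did not. They are the 250 bases before the gene's start in the RefSeq annotation of GRCm38.p6, another build than the one used for the reads, on the strand of the transcript. Capitals mark the letters TGTTCT or AGAACA, the core of an androgen receptor element read on either strand. TGTTTAC or GTAAACA, a forkhead motif, was searched as well and does not overlap with it. Sbp has 3 starts in that table and is not shown.
Pbsn, chrX:77853501-77853750, minus strand: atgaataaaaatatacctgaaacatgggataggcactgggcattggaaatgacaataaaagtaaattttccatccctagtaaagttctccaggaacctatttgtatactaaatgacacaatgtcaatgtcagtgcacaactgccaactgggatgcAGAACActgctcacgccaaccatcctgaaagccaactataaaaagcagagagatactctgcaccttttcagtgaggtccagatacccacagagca
Tgm4, chr9:123034491-123034740, plus strand: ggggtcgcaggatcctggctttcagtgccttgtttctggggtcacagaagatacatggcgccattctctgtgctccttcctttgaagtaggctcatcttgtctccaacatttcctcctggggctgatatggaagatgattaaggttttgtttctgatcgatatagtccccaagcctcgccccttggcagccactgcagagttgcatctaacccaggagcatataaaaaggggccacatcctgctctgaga
Sbpl, chr17:23955274-23955523, minus strand: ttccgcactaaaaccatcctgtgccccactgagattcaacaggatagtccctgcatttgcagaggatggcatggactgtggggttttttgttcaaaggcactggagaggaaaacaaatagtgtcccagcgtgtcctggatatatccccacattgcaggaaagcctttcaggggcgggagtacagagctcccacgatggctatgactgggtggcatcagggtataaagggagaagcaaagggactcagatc
The Pbsn window held AGAACA 95 bases before the start, and neither motif stood in the other windows. Among 32851 promoters of the same length, 16.1% held the androgen receptor letters and 3.17% the forkhead letters. A match is a description of the letters only.

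The genes with the smallest p-values are given next, although none passed the adjustment. On the higher side Rabepk, which encodes a partner of the trafficking protein RAB9, was 7.88, 7.95, 7.95 and 7.84 in SVE and 8.38, 8.23, 8.12 and 8.11 in UTY_sh, without overlap. Its difference was 0.30 ± 0.09 (SE, limma unadjusted p = 0.00566). Also on the higher side, Rps15a, Ece2, 4930578N16Rik, Zfp202, Ms4a7, Slx1b and Fam131a differed by 0.25 to 0.60. Rps15a, like Rpl13 on the lower side, encodes a ribosomal protein with near-identical copies in the genome, so both values are uncertain.

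On the lower side H19 stood out in size. H19 is an imprinted RNA made from the maternal allele, abundant in embryonic tissue, beside the paternally expressed growth factor gene Igf2. It was 6.40, 6.26, 6.88 and 5.84 in SVE and 4.34, 4.34, 4.28 and 5.48 in UTY_sh, where replicate 4 was near the lowest SVE library but did not reach it. The difference was -1.73 ± 0.31 (SE), with an interval from -2.41 to -1.05 (limma unadjusted p = 0.000195, adjusted p = 0.999). It stayed between -2.02 and -1.56 when each library was left out in turn. H19 was 5.34, 3.90, 4.40 and 4.73 in mNKX3.1+UTY_sh, 3.55, 3.96, 3.85 and 3.41 in mNKX3.1, and 5.79, 5.77, 3.64 and 3.61 in PE, so SVE was the group with the highest values. Igf2, chosen after its values were seen, differed by -0.31 ± 0.20, with overlapping groups. The smallest p of all belonged to Ttn, the giant protein of muscle sarcomeres, whose mean lay below the minimum for naming and which was also chosen after its values were seen. Ttn was 5.42, 5.44, 5.26 and 5.24 in SVE and 3.94, 4.47, 4.34 and 4.32 in UTY_sh, a difference of -1.07 ± 0.18 (limma unadjusted p = 0.000128, adjusted p = 0.999). It averaged 4.39 ± 0.15 in mNKX3.1+UTY_sh (SD, n = 4), 5.78 ± 0.27 in mNKX3.1 and 5.96 ± 0.60 in PE. Among 5 tested genes of the skeletal muscle list, Ckm, a creatine kinase, differed by 0.04 ± 0.17 (SE) and Acta1, an actin, by 0.03 ± 0.20. Myh1, a myosin near the bottom of the scale, was lower without overlap, at 2.83 to 3.48 in SVE and 2.24 to 2.77 in UTY_sh. Acbd6, which binds fatty acyl-CoA, differed by -0.31 ± 0.08 and Foxo1, a forkhead factor held in check by insulin signalling, by -0.20 ± 0.06. The remaining lower genes, Ahdc1, Fbxo24, Dok3, 1300018I17Rik and Zc3h10, differed by -0.50 to -0.18.

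Markers of the other cell types in a graft were compared to see whether its makeup shifted. Of 12 tested basal epithelial genes, 10 were higher in UTY_sh, with a median of 0.104, and none was called. Krt5, a basal keratin, was 10.22, 10.25, 10.61 and 10.33 in SVE and 10.61, 10.75, 10.27 and 10.67 in UTY_sh. The 11 tested luminal genes had a median of -0.013. Smooth muscle genes were all higher, 10 of 10, with a median of 0.136, and none was called. Acta2, smooth muscle actin, was 14.74, 14.23, 14.88 and 14.32 in SVE and 14.66, 14.96, 14.51 and 14.72 in UTY_sh. The summed level of these 10 genes was 16.84 to 17.52 in SVE and 17.02 to 17.60 in UTY_sh, so the groups overlapped. Of 12 fibroblast and matrix genes 10 were higher, with a median of 0.074. The table does not separate the species, so a stromal value may mix mouse reads with reads from the rat mesenchyme.

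Fat cell genes varied between libraries of both groups. All 7 tested were higher in UTY_sh, with a median of 0.552, and none was called. Cidec, a protein of lipid droplets, was 4.26, 7.84, 5.28 and 2.51 in SVE and 5.45, 6.22, 7.17 and 7.23 in UTY_sh. SVE replicate 2 exceeded every UTY_sh library, and the difference was 1.54 ± 0.93 (SE), with an interval from -0.52 to 3.60. The summed level of the list was 8.06, 10.81, 9.01 and 7.04 in SVE and 8.43, 9.28, 10.10 and 10.28 in UTY_sh. Endothelial genes had a median of 0.007 over 10 and leukocyte genes one of 0.058 over 8, with none called. The 12 tested proliferation genes had a median of 0.049, the 15 genes of endoplasmic reticulum stress one of -0.023 and the 14 of the immediate early and heat shock list one of -0.055. Egr1, an immediate early transcription factor, was 6.14, 6.96, 6.71 and 6.66 in SVE and 7.87, 8.10, 6.73 and 7.03 in UTY_sh, with overlap between the groups (limma unadjusted p = 0.0210). The heat shock chaperone gene Hspa8 differed by 0.18 ± 0.08 (SE).

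**Figure D4:**
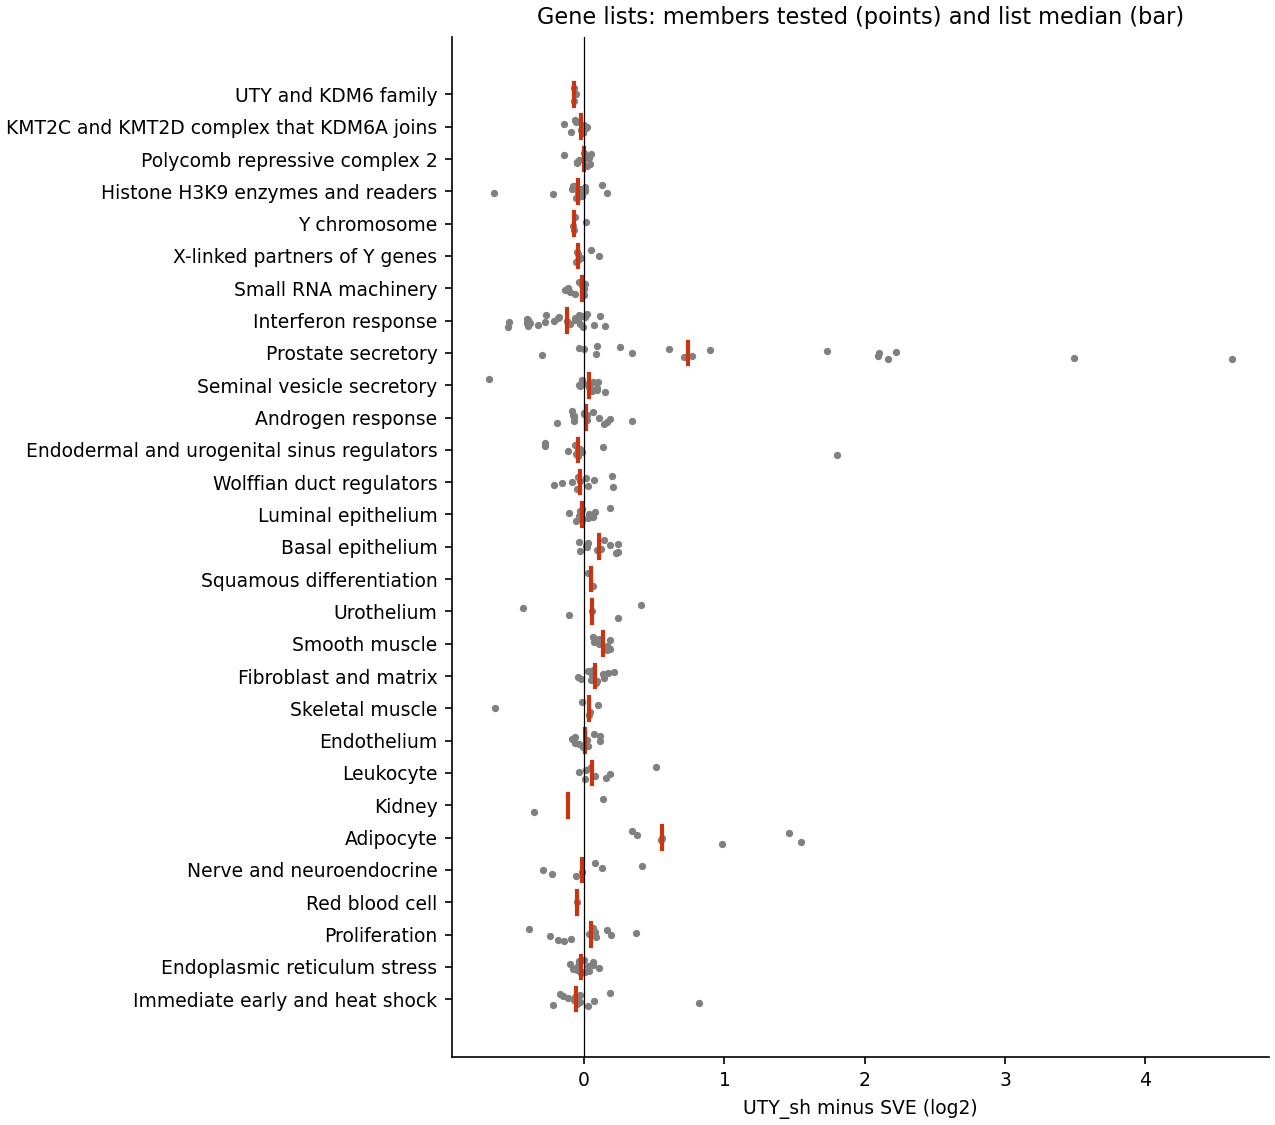
Differences between UTY_sh and SVE (log2, horizontal axis) for the tested members of 29 gene lists (rows), with 1 point per gene and a red bar at each list's median. Only the prostate secretory and adipocyte medians, at 0.743 and 0.552, lie beyond 0.2 from 0.

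**Figure D5:**
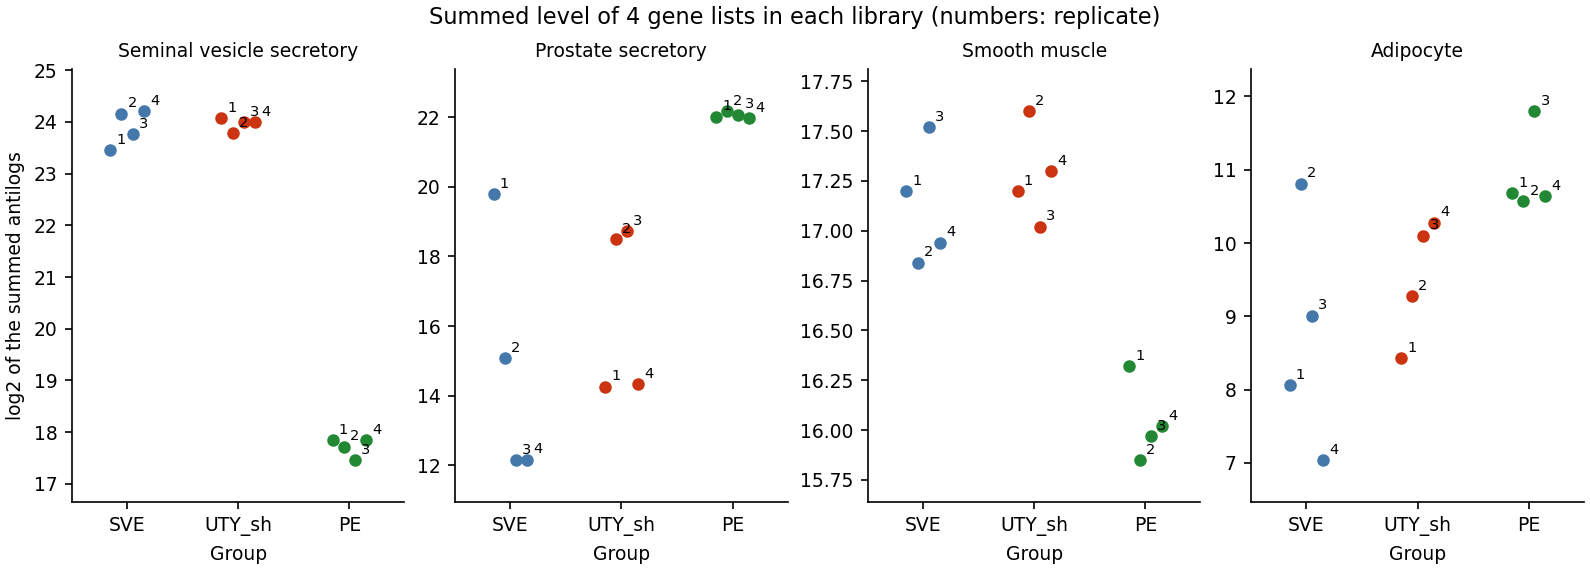
Summed level of 4 gene lists (log2 of the summed antilogs, vertical axis, with a scale of its own in each panel) in the 4 libraries of SVE, UTY_sh and PE (horizontal axis), numbered by replicate. Seminal vesicle genes lie at 23.45 to 24.21 in SVE and 23.78 to 24.08 in UTY_sh, while prostate genes spread from 12.15 to 19.80 in SVE and from 14.26 to 18.72 in UTY_sh, below PE.

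The grafts labelled UTY_sh differed widely from the prostate grafts. Between UTY_sh and PE, limma called 7686 genes (57.1%), 3809 higher (28.3%) and 3877 lower (28.8%) in UTY_sh, of which 2151 differed by 2-fold or more. The 3 largest rises from PE to UTY_sh were in Sva, Svs6 and Svs1, all seminal vesicle secretory genes, at 10.85, 10.55 and 10.50. The 3 largest falls were in the prostate genes Msmb, Wfdc3 and Defb50, at -9.18, -8.11 and -8.00. Wfdc3 was 1.83 to 4.22 in UTY_sh, near the bottom of the scale. It was tested only because it was high in PE and mNKX3.1 libraries, so its fall is a description only. These tests compared grafts of different epithelia, 4 libraries against 4, and 7686 genes passed the adjustment. They do not show what could be called between UTY_sh and SVE, where Sbp, at 4.61, did not pass (limma adjusted p = 0.999).

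Whether the difference that goes with the UTY_sh label depends on the construct was tested as an interaction over 16 libraries. It passed for 6762 genes (50.3%), 3344 higher (24.9%) and 3418 lower (25.4%), of which 2295 reached 2-fold. The largest were in seminal vesicle genes in one direction and prostate genes in the other. Sva averaged 17.59 in SVE and 17.55 in UTY_sh, and 6.25 in mNKX3.1 and 17.48 in mNKX3.1+UTY_sh, an interaction of 11.26 ± 0.43 (SE). 5430419D17Rik averaged 2.99 and 4.72 without the construct, and 13.68 and 2.65 with it, an interaction of -12.75 ± 1.14. Kdm6b had an interaction of 0.65 ± 0.12 (limma adjusted p = 0.000262), with means of 10.77 and 10.71 without the construct against 10.23 and 10.81 with it. Kdm6a and Ehmt2 did not pass. Between UTY_sh and mNKX3.1+UTY_sh, the groups that share that label, no gene passed in limma (0 called, 0%), and 285 genes (2.12%) had an unadjusted p below 0.05. Without UTY_sh replicate 4 it called 2, again Sbp and Sbpl.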

How the data were processed

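Poly-A RNA of the grafts was made into TruSeq libraries and sequenced, per the labels' protocols. For the authors' steps, the submitters' processing notes list mouse genome mm9, TopHat2 2.0.4, Cufflinks 2.0.2, bcl2fastq 1.8.4 and DESeq, while no source used here gives the read counter or annotation. The authors deposited 1 log2 value per gene and library, between 0.0193 and 22.42. Between 11 and 13 the antilogs were whole multiples (within 0.1) of a unit per library, from which the reads per library were read. Low values could not be turned back into reads, so no count test was run. Values were tested as deposited, with no pseudocount, with limma 3.58.1 (R 4.3.3), a variance trend, empirical Bayes moderation and Benjamini-Hochberg adjustment over all 13456 genes, in a fit of the compared groups only, with an adjusted p below 0.05 called. The test was checked on simulated data. Named genes are Uty, Kdm6a, Kdm6b and Ehmt2, the 10 smallest p each way with a mean of at least 5, up to 4 per list of 29, all tested Y chromosome and secretory genes, and the 3 largest called each way in other comparisons, though a few of these are not reported here. The members and lists were chosen with earlier results of these data known. Alternatives were the filter, scaling, samples in the fit, variance model, library weights and each library left out, and, chosen after seeing the data, 2 that address Pbsn.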

Additional observations from a re-analysis of the deposited data

Results flagged for a closer look

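In 306 pairs of a named gene and a group, 1 library lay far from the other 3 in 14, measured by its gap to the nearest library over the whole range, where chance gives about 1 in 20. In UTY_sh replicate 4, Ehmt2 was 11.42 with the nearest library at 11.24, H19 was 5.48 (nearest 4.34) and Egfl7 was 8.09 (nearest 7.84). In UTY_sh replicate 2, Upk3b, a uroplakin, was 6.57 with the nearest library at 8.44, Serpine2 was 14.62, Svs4 was 21.54, Postn was 10.12 and Lum was 8.69. In UTY_sh replicate 1, Myh1 was 2.24. In SVE replicate 3, Rbbp5 was 8.69, Folh1 was 5.86 and Trpv6 was 10.77. In SVE replicate 4, Pparg was 3.52, and in SVE replicate 1, Lum was 7.67 (nearest 8.41).

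The difference that goes with the UTY_sh label was not the same with and without the construct for 6762 genes, by limma's interaction test. The values for the largest and for the histone enzyme genes were 11.26 for Sva, 11.25 for Svs6, 10.91 for Ceacam10, -12.75 for 5430419D17Rik, -14.93 for Sbpl and -17.45 for Sbp, with 0.65 for Kdm6b and -1.01 for Uty. In each of these the difference without the construct had not passed the test. Sbp and Sbpl rest on uneven libraries, as mNKX3.1 replicate 3 had Sbp at 8.46 against 18.22 to 18.53 in the other 3.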

How the results depend on the processing

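Between UTY_sh and SVE, limma called 0 genes with no filter, a minimum of 7, median centring, quantile normalization, 12 or 20 libraries in the fit, no variance trend, robust moderation, library weights, without the highest Pbsn library of each group, and with Pbsn as a covariate, the last 2 chosen after seeing the data. Leaving out each library gave 0 to 2, the 2 being Sbp and Sbpl without UTY_sh replicate 4, and the same range held for UTY_sh against mNKX3.1+UTY_sh. The number of genes at an unadjusted p below 0.05, 181 as reported, was 576 with no filter, 316 with 20 libraries, 291 with 12, 118 at a minimum of 7, 380 with weights, 551 with Pbsn as a covariate and 85 to 477 with a library left out; the cause was not tested. The interaction called 6467 to 6682 genes under the other settings and 6297 to 7021 with a library left out, and UTY_sh against PE 7643 to 8424 and 6751 to 7968. The Uty difference was -0.0746 with centring and -0.1694 to 0.0189 with a library left out, above 0 without SVE replicate 1 or UTY_sh replicate 4 (0.0108). Relative to other Y genes it was 0.0102 against Ddx3y alone, -0.0092 against Kdm6a, and -0.0832 to 0.0576 with a library left out, above 0 without SVE replicate 1 or UTY_sh replicate 4 (0.0246). Over 153 named genes, 2760 of 2882 alternative values kept the reported sign and 122, in 46 genes, did not. The planned limma-voom fit on reads was not run, because low values could not be turned back into reads. No paired analysis was possible because the labels give no replicate numbers, and those used here follow accession order. Precision was lowest for the 822 genes with a mean below 5, where the median standard error was 0.275, and the part of depth in this was not tested.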

Other observations

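Several genes not described above were uneven among grafts of both groups. Krt4, a keratin of stratified epithelium, was 6.63, 4.46, 7.06 and 4.41 in SVE and 3.60, 7.31, 5.15 and 6.60 in UTY_sh. Cyp4b1, a cytochrome P450, was 6.33, 5.45, 7.02 and 4.98 in SVE and 5.15, 7.38, 5.55 and 6.23 in UTY_sh. Both genes were higher in SVE replicates 1 and 3 and in UTY_sh replicates 2 and 4 than in the other libraries. Mmp7, a secreted protease, instead had the order of Pbsn at its top, with 10.40 in SVE replicate 1 and 9.53 in UTY_sh replicate 3. Igj, the joining chain of secreted antibodies, was 8.97, 6.92, 7.57 and 7.81 in SVE and 8.35, 9.36, 8.28 and 7.30 in UTY_sh. None of these genes was called between UTY_sh and SVE.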
